A study of Mus musculus with 11 samples.

Results

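The transcription factor gene Myc, the gene of its partner Max and 34 genes of ribosome biogenesis were followed across a knockdown of Arid1a and a treatment with EGF in a mouse pancreatic acinar cell line. The members were taken by gene symbol from a list of 36 names. The symbols of 35 of them are among the 23284 symbols of the count tables, and all 35 passed the filter on low counts. They are divided here by role into MYC and MAX (2 genes), RNA polymerase I and nucleolar proteins (7), core proteins of the small nucleolar ribonucleoproteins, or snoRNPs (4), and factors of the small (9) and the large (13) ribosomal subunit. The remaining name, Noc2l, is not analysed here.

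The study measured polyadenylated RNA by sequencing in 11 libraries of 266-6 cells, an established line from a pancreatic acinar tumour of a transgenic mouse. For 48 h the cells carried either a non-targeting siRNA or siRNAs (25 nM) to Arid1a, which encodes a subunit of the SWI/SNF chromatin remodelling complex. All groups, the controls included, were transfected and kept without serum overnight, and then received EGF, the ligand of the EGF receptor, at 40 ng/ml, or its vehicle, 0.1% BSA, for 8 h. There were 2 libraries with control siRNA and vehicle, 3 with control siRNA and EGF, 3 with Arid1a siRNAs and vehicle, and 3 with Arid1a siRNAs and EGF. The knockdown is transient and was made in 1 cell line, and the vehicle groups are serum-starved cells rather than cells in full growth medium.

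MYC forms a dimer with MAX that binds E-boxes, and is known to raise transcription of genes for ribosome production. Ribosome biogenesis starts in the nucleolus, where RNA polymerase I makes a long precursor RNA, snoRNPs direct its chemical modification, and large assemblies of proteins fold and cut it into the RNAs of the small and large subunits. Acinar cells make large amounts of secreted digestive enzymes and carry a dense supply of ribosomes.

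The canonical E-box, CACGTG, reads the same on both strands. It was searched in windows of 250 bases before to 50 bases after the annotated start of each gene, from RefSeq on build GRCm38.p6. Windows were at hand for 29 of the 35 members (32 windows), and not for Myc, Bop1, Npm1, Fbl, Rrp12 and Rrs1. The E-box was found in 8 of the 32 windows (25.0%), against 7.15% of all 32851 windows and 8.12% of the windows of genes in the count tables. The matches are shown because they are the letters that a MYC and MAX dimer is known to bind, and because the 8 genes fall into several roles. Each is printed in the direction of transcription with up to 10 bases on either side, and capitals mark the E-box:
Max, chr12:76962236-76962261, minus strand, spanning the start site: tgagcccggtCACGTGttagggggcc
Mybbp1a, chr11:72441357-72441376, plus strand: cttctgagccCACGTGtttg
Wdr43, chr17:71616222-71616247, plus strand: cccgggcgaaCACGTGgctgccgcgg
Tsr1, chr11:74898094-74898119, plus strand: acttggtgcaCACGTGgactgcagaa
Utp20, chr10:88826765-88826787, minus strand: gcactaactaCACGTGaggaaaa
Nop2, chr6:125131813-125131838, plus strand: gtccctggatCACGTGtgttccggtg
Pes1, chr11:3963967-3963992, plus strand: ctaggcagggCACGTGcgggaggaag
Grwd1, chr7:45830740-45830765, minus strand: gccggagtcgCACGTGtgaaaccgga
In Nop2 the match lies 54 bases before the start site. In Mybbp1a, Wdr43, Tsr1, Utp20, Pes1 and Grwd1 it begins between base 3 and base 41 after it. The last bases of the window lay in a GENCODE vM21 transcript of the gene, on the same strand, in 27 of the 32 windows. The windows of Max, Mybbp1a and Nop2 were not among these. Their start site and direction are those of RefSeq only. The non-canonical E-box CATGTG, searched on both strands, was in 25.0% of the members' windows and 14.2% of all windows. Among the windows of genes in the count tables it was in 11.3%. An ETS core, CCGGAAG, also searched on both strands, was in 25.0%, 8.86% and 11.4% of the windows of these sets, in the same order. No base can belong to 2 of these 3 motifs at once. The members' windows had a mean GC content of 58.5%, against 53.8% over all windows and 56.6% over those of genes in the count tables. The part of GC content in these shares was not tested. A match describes the letters only.

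The counted reads per library numbered 10279763 to 19773007. Levels are given in CPM, read counts scaled to the size of each library, here with TMM factors. Arid1a itself stood at 292 and 399.9 CPM with control siRNA and at 127 to 157 with Arid1a siRNAs, and at 263 to 308 and 122 to 152 in the respective groups with EGF. The fall was -1.25 ± 0.13 on the log2 scale without EGF (log2 change ± standard error, edgeR quasi-likelihood test, adjusted p = 2.36e-05) and -1.06 ± 0.12 with EGF (edgeR adjusted p = 2.85e-05). Of 12 acinar markers, 11 were tested and their summed level was 15721 to 17781 CPM with control siRNA, 14084 to 15397 with EGF, 15545 to 18484 with Arid1a siRNAs and 14943 to 16739 with both, with the amylase gene Amy2a5 at 0 in each. By the calls defined below, EGF with control siRNA lowered 6 of the 11 and raised 2 (median log2 change -0.39). Over all genes, 18.8% were called lower and 16.8% higher. Without EGF the siRNAs raised 4 acinar markers and lowered 3, from -0.47 for Ptf1a to 2.14 for Cel. With EGF they raised 5 and lowered 2, from -1.02 for Bhlha15 to 2.50 for Cel. Of all genes, 18.8% were called higher and 20.1% lower without EGF, and 23.7% and 23.2% with EGF. Summed ductal markers (5 genes, 4 tested, none at 0 in all libraries) were 53.8 to 77.3 CPM with control siRNA, 109 to 119.8 with EGF, 50.8 to 55.6 with Arid1a siRNAs and 63.4 to 69.4 with both. Single ductal genes went both ways: with control siRNA EGF raised Sox9 (log2 change 1.03) and lowered Krt19 (-0.91), and with EGF the siRNAs changed them by -0.87 and 0.44. The part of these markers in the results below was not tested. The islet markers Ins1, Ins2 and Sst were at 0 in every library, and the islet list's sum (5 genes, 1 tested, Chga) was 701 to 752, 1112 to 1158, 626 to 768 and 794 to 839.8 CPM in the same order of groups, and its part was not tested either. Fibroblast, immune and endothelial lists summed to at most 13.3, 9.30 and 3.03 CPM in any library, with Lum, Cd3e and Cdh5 at 0 throughout. A CPM value is a share of a library's reads, so in these bulk samples more cells of a kind and more RNA per cell cannot be told apart.

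The 35 genes together held 0.607% and 0.570% of the counted reads in the 2 control libraries. With EGF they held 0.978%, 1.04% and 0.984%, with Arid1a siRNAs 0.580%, 0.558% and 0.566%, and with Arid1a siRNAs and EGF 0.804%, 0.831% and 0.812%. The plot of these shares shows both EGF groups above both vehicle groups, the EGF group with Arid1a siRNAs below that with control siRNA, and overlap only between the vehicle groups.

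**Figure D1:**
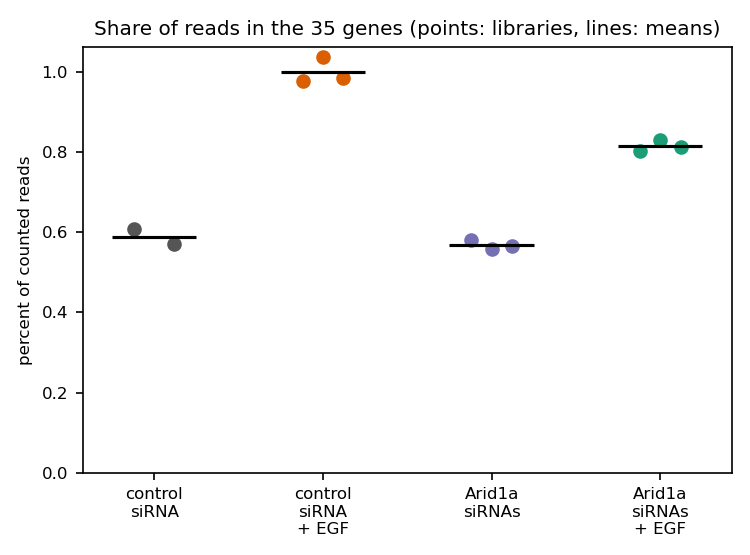
Share of the counted reads (percent, vertical axis) held by the 35 genes in each of the 11 libraries, with points for libraries and lines for group means. The group means were 0.589% with control siRNA, 0.568% with Arid1a siRNAs and 0.816% with Arid1a siRNAs and EGF, and the 3 libraries with control siRNA and EGF lie between 0.978% and 1.04%, above all others.

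With control siRNA, EGF raised all 35 members. Calls here and below are edgeR quasi-likelihood tests, two-sided, with p-values adjusted by Benjamini-Hochberg over the 13343 genes tested and a threshold of 0.05. Of those genes, 16.8% were called higher. All 35 had libraries that did not overlap between the groups, against 25.7% of all genes in this direction. The members' median change was 0.74 on the log2 scale (1.67-fold), with -0.03 over all genes, and single members ranged from 0.43 for Max to 1.03 for Mybbp1a. Each change lay between percentile 89.1 and percentile 97.5 of all genes' changes, and the largest adjusted p was 0.00460 (edgeR). By role, the medians were 0.71 for MYC and MAX, 0.93 for RNA polymerase I and nucleolar proteins, 0.70 for snoRNP cores, 0.81 for small subunit factors and 0.70 for large subunit factors.

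In cells with Arid1a siRNAs, EGF again raised all 35 members, where 13.0% of all genes were called higher, and again no member's libraries overlapped between the groups (19.7% of all genes). The median change was 0.54 (1.46-fold) with -0.01 over all genes, from 0.29 for Max to 0.82 for Rrp9. The role medians were 0.53, 0.59, 0.52, 0.58 and 0.52 in the order above. Utp14a, a small subunit factor, had the weakest call (0.30 ± 0.08, edgeR adjusted p = 0.0119), and lost it without Arid1a siRNAs replicate 2 or without Arid1a siRNAs with EGF replicate 1.

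**Figure D2:**
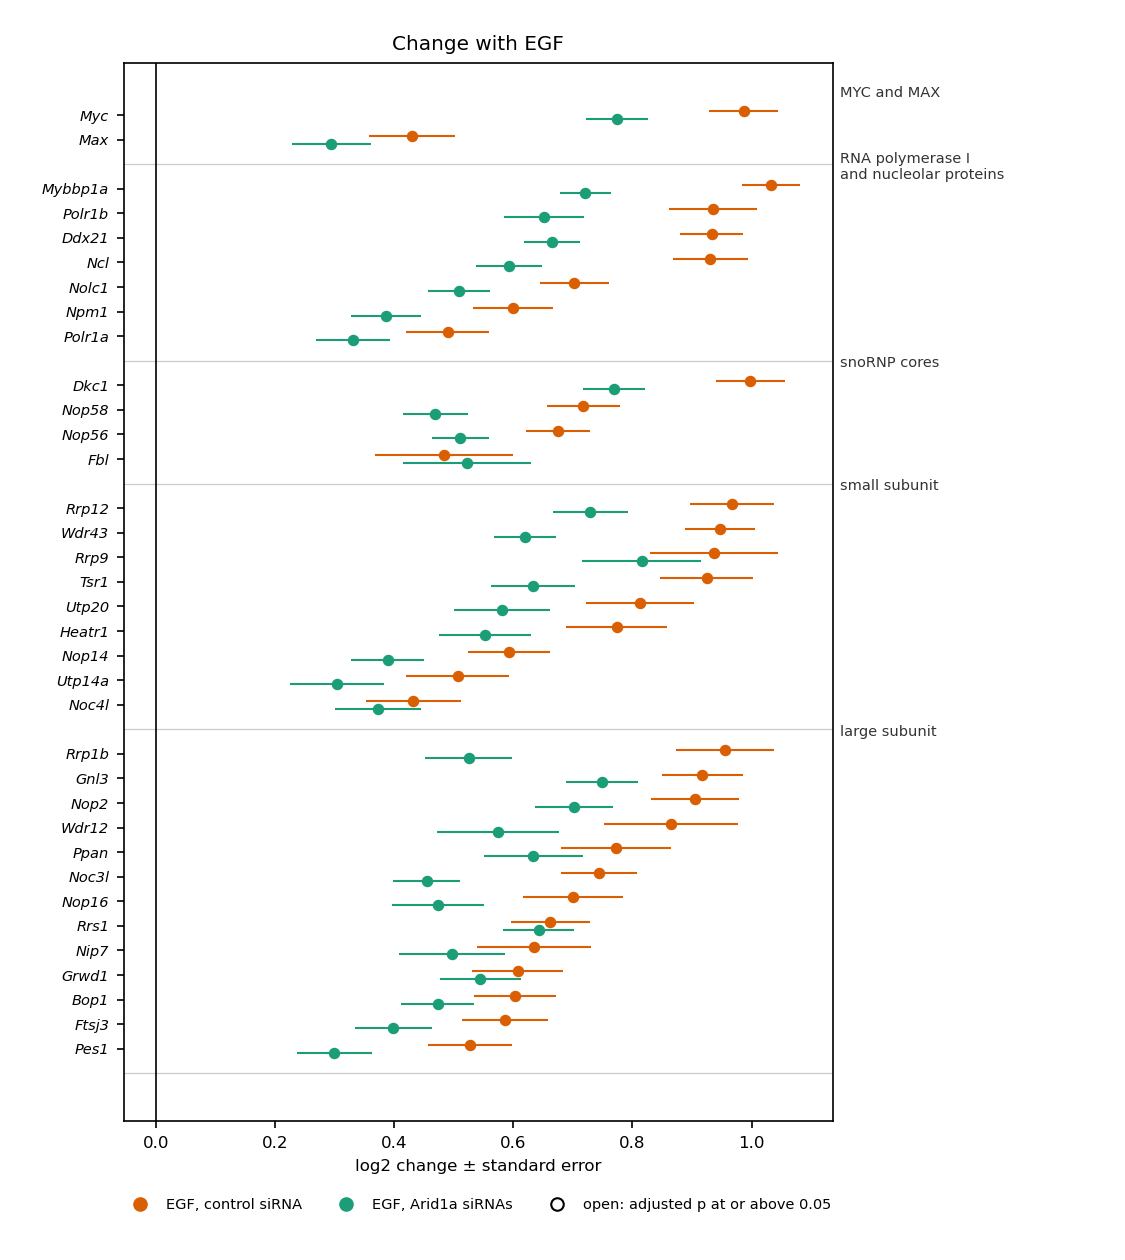
Log2 change with EGF ± standard error (horizontal axis) for the 35 members by role, with control siRNA in orange (2 against 3 libraries) and with Arid1a siRNAs in green (3 against 3). All points are filled, that is called, and lie right of 0, and the green point lies left of the orange one for 34 members, Fbl being the exception.

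Without EGF, the Arid1a siRNAs lowered 12 members, raised 1 and left 22 uncalled, while 20.1% of all genes were called lower and 18.8% higher. The 12 were Myc, Max, Npm1, Ddx21, Nop56, Nop58, Dkc1, Noc4l, Rrp9, Tsr1, Ftsj3 and Rrs1, and the gene that rose was Noc3l. The calls of Myc, Ddx21, Nop58 and Dkc1 held under all 18 other settings, and the other 9 were lost under at least 1. In 14 members all libraries with Arid1a siRNAs lay under both control libraries (27.9% of all genes), and in 2 above them (26.8%). The median change was -0.10 with -0.01 over all genes, from -0.44 for Rrp9 to 0.20 for Rrp1b. Calls here depended on the control libraries and the scaling: without control siRNA replicate 1, 5 members were lower and 0 higher. With upper-quartile factors 6 were lower and 3 higher, and the share of called genes that were higher went from 48.3% (2505 of 5190) to 60.7% (3129 of 5154).

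With EGF present in both groups, the Arid1a siRNAs lowered 26 members and raised none, against 23.2% of all genes called lower and 23.7% called higher. All 35 changes were below 0, and in 29 members no library of the 2 groups overlapped (28.8% of all genes in this direction). The median was -0.30 with 0.00 over all genes, and members ranged from -0.57 for Nop58 to -0.05 for Ppan. The 9 uncalled members were Fbl, Nop14, Utp14a, Utp20, Bop1, Ppan, Gnl3, Grwd1 and Noc3l. A fit of these 2 groups alone that paired libraries by their replicate number, chosen after seeing that same-numbered libraries deviate together, called 30 members lower, with Bop1, Noc3l, Gnl3 and Grwd1 added. Over all genes, that fit also called more, with 4179 lower and 4183 higher, against 3097 and 3164 in the main fit. Of the 26, Polr1a, Rrp12 and Wdr12 lost their call under at least 1 other setting.

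**Figure D3:**
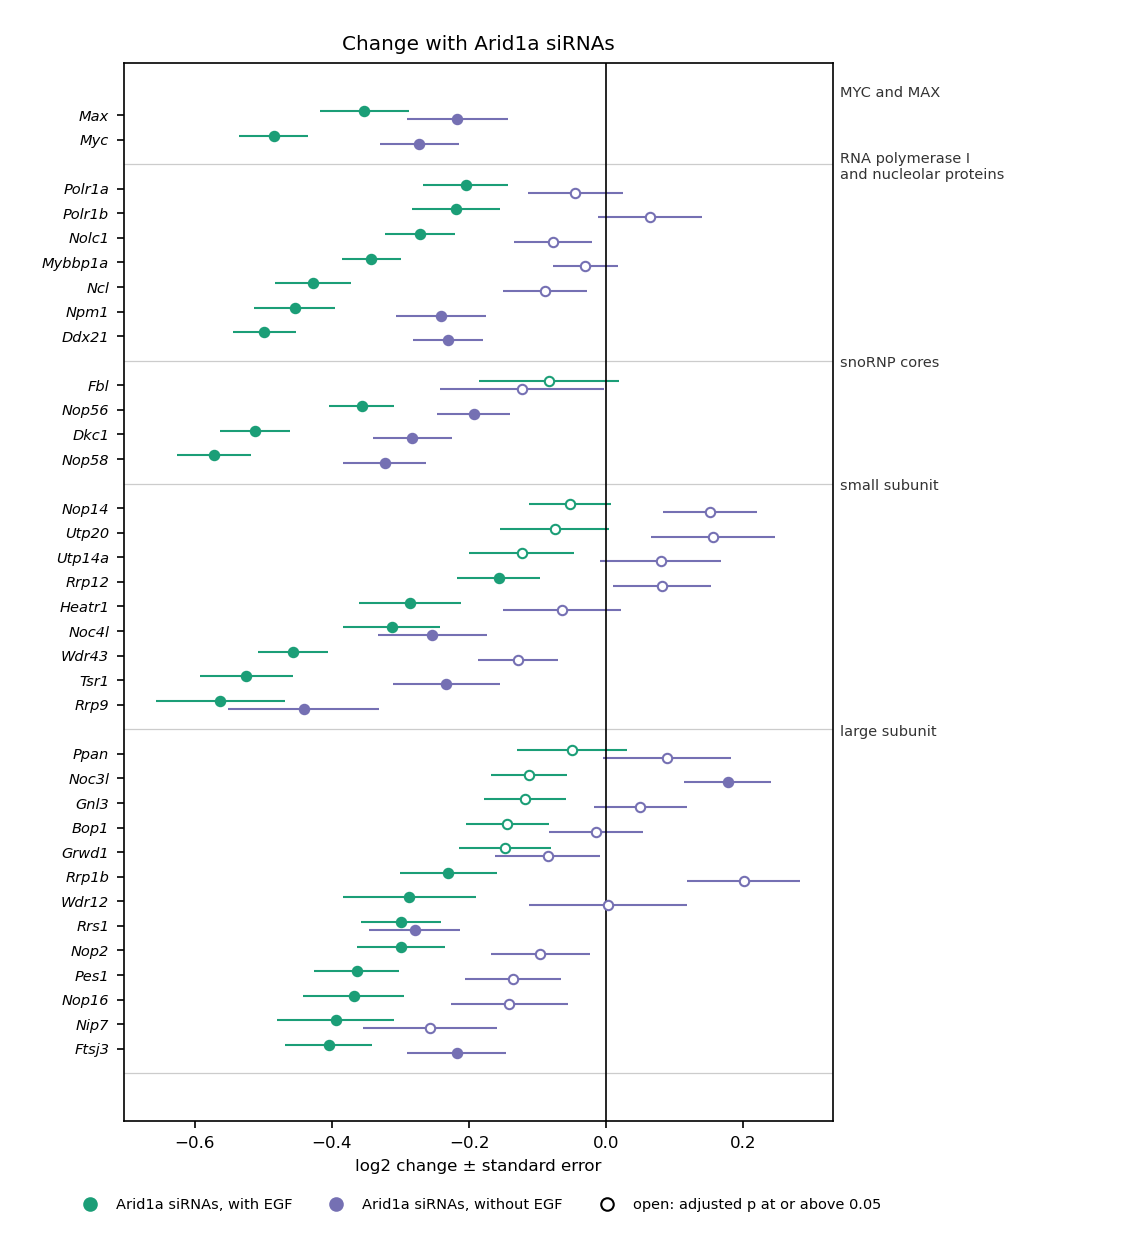
Log2 change with Arid1a siRNAs ± standard error (horizontal axis) for the 35 members by role, with EGF in green (3 against 3 libraries) and without EGF in violet (3 against 2), open points being uncalled. With EGF all 35 points lie left of 0, and without EGF 25 do.

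All 12 members that fell without EGF also fell with EGF, a further 14 fell only with EGF present by their calls, and 8 were called in neither comparison. Of all genes, 20.1% were called lower without EGF and 23.2% with EGF. How all genes divide over these joint classes was not counted. A call in one comparison and none in the other does not show a difference, which is tested for the 2 EGF responses below. In 34 of 35 members, every library with Arid1a siRNAs and EGF lay above both control libraries without EGF (29.9% of all genes), Max being the exception. In 29 members the 3 libraries with both lay above the 3 with Arid1a siRNAs and below the 3 with control siRNA and EGF, without overlap. Taken singly, the first condition held for 19.7% of all genes and the second for 28.8%. The share of all genes that met both was not counted.

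Myc rose with EGF under both siRNAs and fell with the Arid1a siRNAs both without and with EGF. It stood at 108 and 118 CPM with control siRNA, 225, 224 and 224 with EGF, 90.00, 94.9 and 95.96 with Arid1a siRNAs and 158, 162 and 161 with both. The 4 groups did not overlap, and the 3 libraries with control siRNA and EGF lay within 1 CPM of each other. EGF raised Myc by 0.99 ± 0.06 with control siRNA (edgeR adjusted p = 1.57e-08) and by 0.77 ± 0.05 with Arid1a siRNAs (edgeR adjusted p = 1.40e-07), all values on the log2 scale. The Arid1a siRNAs changed it by -0.27 ± 0.06 without EGF (edgeR adjusted p = 0.00194) and -0.48 ± 0.05 with EGF (edgeR adjusted p = 2.88e-06), and both calls held under every alternative setting run. Max, whose protein also pairs with the MXD repressors, stood at 52.1 and 49.2 CPM, 64.5, 68.7 and 71.9 with EGF, 43.4, 41.7 and 46.02 with Arid1a siRNAs and 51.8, 55.1 and 53.7 with both. Its range was narrow, and the libraries with both treatments overlapped those with neither. Its responses to EGF were the smallest of the 35 in both backgrounds, at 0.43 ± 0.07 and 0.29 ± 0.07, and the siRNAs changed it by -0.22 ± 0.07 (edgeR adjusted p = 0.0301) and, with EGF, by -0.35 ± 0.06 (edgeR adjusted p = 4.43e-04).

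**Figure D4:**
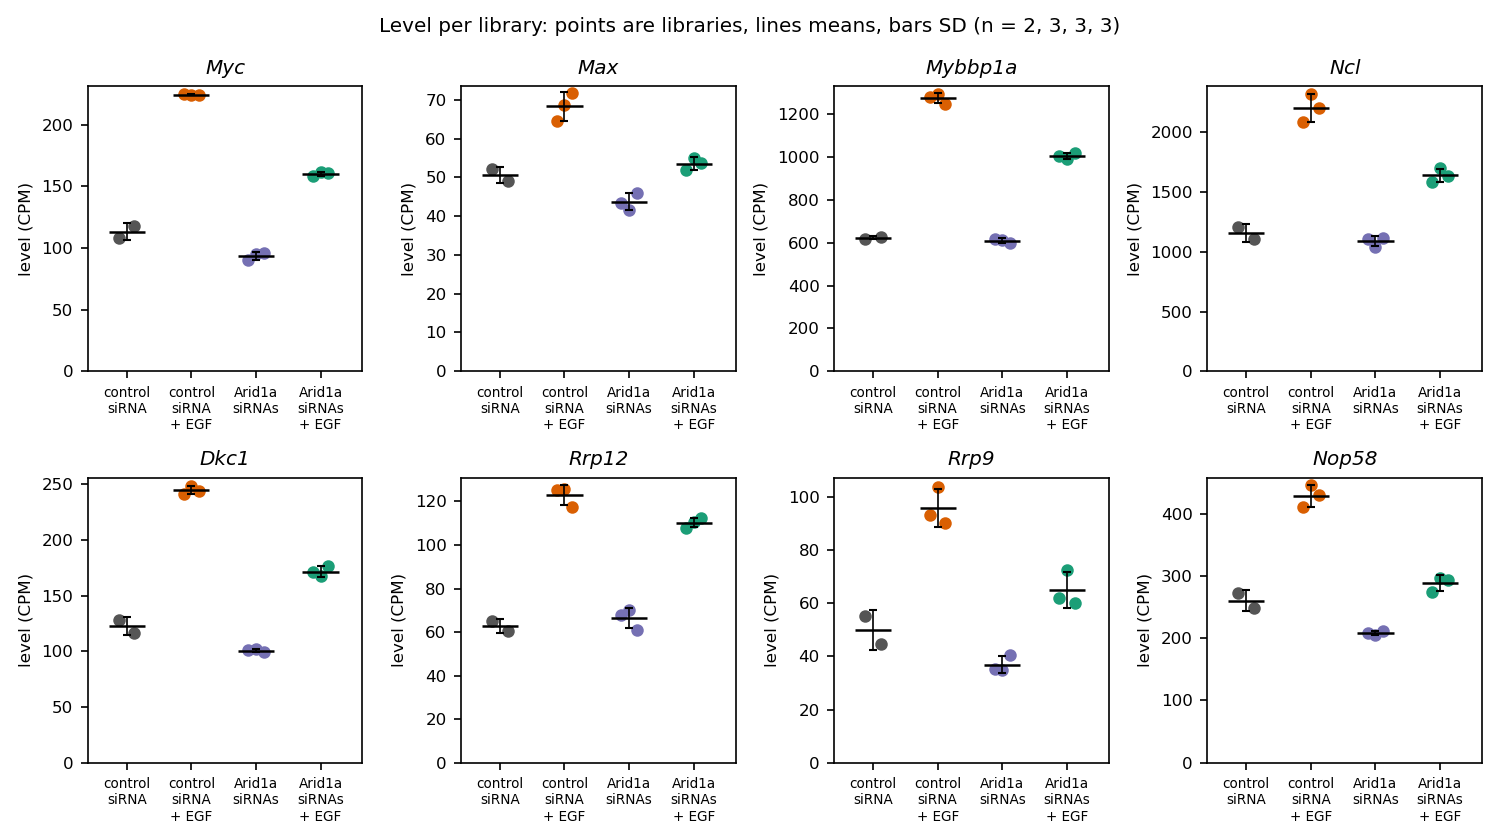
Level in CPM (vertical axes, from 0) of Myc, Max, Mybbp1a, Ncl, Dkc1, Rrp12, Rrp9 and Nop58 in each library, with points for libraries, lines for group means and bars for the SD (n = 2, 3, 3 and 3). In each gene the control siRNA libraries with EGF are highest, and the libraries with Arid1a siRNAs and EGF lie between them and those with Arid1a siRNAs alone.

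Among RNA polymerase I and nucleolar proteins, the siRNAs lowered all 7 members with EGF and only Npm1 and Ddx21 by their calls without it. Mybbp1a, a nucleolar protein that binds MYB and takes part in ribosomal RNA synthesis, had the largest EGF response of the 35 with control siRNA. With Arid1a siRNAs the largest was that of Rrp9. The levels of Mybbp1a were 618 and 628 CPM with control siRNA and 1279.6, 1294 and 1249 with EGF. They were 618, 614 and 597 with Arid1a siRNAs and 1006, 989.7 and 1018 with both. The vehicle groups overlapped, if barely, and the 2 EGF groups lay apart from them and from each other. EGF raised Mybbp1a by 1.03 ± 0.05 with control siRNA (edgeR adjusted p = 1.87e-09) and 0.72 ± 0.04 with Arid1a siRNAs (edgeR adjusted p = 3.89e-08). Polr1a, which encodes the largest subunit of RNA polymerase I, responded least in the group. Its levels were 162 and 177 CPM, 239.9, 238 and 236 with EGF, 170.3, 171 and 150.4 with Arid1a siRNAs and 212, 194 and 213 with both. The gene rose by 0.49 ± 0.07 and 0.33 ± 0.06 with EGF, and fell by 1.15-fold with the siRNAs in the presence of EGF (log2 -0.20, edgeR adjusted p = 0.0133), a call that was lost without Arid1a siRNAs with EGF replicate 2. Polr1b, the gene of the second largest subunit, rose more, by 0.93 ± 0.07 and 0.65 ± 0.07.

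Ddx21, an RNA helicase of the nucleolus, had the largest fall of this role with EGF. Its levels were 348 and 339 CPM, 643, 672 and 653 with EGF, 297, 299 and 282 with Arid1a siRNAs and 468, 457 and 468 with both. The 4 groups were apart, in the same order as for Myc. The siRNAs changed it by -0.23 ± 0.05 without EGF (edgeR adjusted p = 0.00271) and -0.50 ± 0.05 with EGF (edgeR adjusted p = 8.35e-07). Npm1 encodes nucleophosmin, an abundant chaperone of the granular nucleolus, and stood at 484 and 443 CPM, 657, 728 and 723 with EGF, 394, 373 and 410.0 with Arid1a siRNAs and 493, 536 and 510.1 with both. Its changes with the siRNAs were -0.24 ± 0.07 without EGF (edgeR adjusted p = 0.00987) and -0.45 ± 0.06 with EGF (edgeR adjusted p = 2.27e-05). Ncl, the gene of nucleolin, stood at 1209 and 1108 CPM, 2091, 2325 and 2208 with EGF, 1108, 1041 and 1118 with Arid1a siRNAs and 1588, 1699 and 1639 with both. Unlike Ddx21, Ncl was not called with the siRNAs without EGF (-0.09 ± 0.06, edgeR adjusted p = 0.273) and was with EGF (-0.43 ± 0.05, edgeR adjusted p = 2.01e-05). Nolc1, a phosphoprotein that binds snoRNPs, changed by -0.08 and -0.27 and was called only in the second case.

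The snoRNP cores comprise Fbl, the methyltransferase of box C/D particles, their scaffold proteins Nop56 and Nop58, and Dkc1, the pseudouridine synthase of box H/ACA particles. Dkc1 stood at 128 and 117 CPM with control siRNA, 241, 248 and 244 with EGF, 101, 102 and 99.3 with Arid1a siRNAs and 171, 167 and 177 with both. No 2 groups overlapped. EGF raised it by 0.998 ± 0.06 with control siRNA (1.997-fold, edgeR adjusted p = 1.46e-08) and 0.77 ± 0.05 with Arid1a siRNAs, and the siRNAs changed it by -0.28 ± 0.06 without EGF and -0.51 ± 0.05 with EGF (edgeR adjusted p = 0.00151 and 1.75e-06). Nop58 had the largest fall of all members with the siRNAs and EGF. It stood at 272 and 249 CPM, 410.3, 445 and 429.6 with EGF, 208, 205 and 212 with Arid1a siRNAs and 274, 297 and 294 with both. The siRNAs changed it by -0.32 ± 0.06 in the absence of EGF (edgeR adjusted p = 7.65e-04) and -0.57 ± 0.05 in its presence (edgeR adjusted p = 1.12e-06). With both treatments, its 3 libraries lay just above the 2 control libraries.

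Nop56 stood at 144 and 150.4 CPM, 233, 238 and 234 with EGF, 126, 127 and 133 with Arid1a siRNAs and 183, 186 and 182 with both. The siRNAs changed it by -0.19 ± 0.05 and -0.36 ± 0.05 without and with EGF (edgeR adjusted p = 0.0104 and 2.66e-05). Fbl stood at 22.5 and 19.8 CPM, 31.2, 28.7 and 29.1 with EGF, 18.2, 17.6 and 22.9 with Arid1a siRNAs and 25.3, 28.8 and 30.03 with both. The 2 EGF groups overlapped, as did the 2 vehicle groups. Fbl was called in neither comparison of the siRNAs (-0.12 ± 0.12, edgeR adjusted p = 0.450, and -0.08 ± 0.10, edgeR adjusted p = 0.531), with larger standard errors than its partners at fewer reads.

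Small subunit factors act on the 5′ part of the precursor RNA in the processome around the U3 snoRNP, and later in the maturing subunit. Rrp9, a protein of the U3 particle itself, stood at 55.3 and 44.6 CPM with control siRNA, 93.4, 104 and 90.4 with EGF, 35.4, 34.95 and 40.5 with Arid1a siRNAs and 62.2, 72.6 and 59.97 with both. The 2 control libraries differed from each other more than in any other member (coefficient of variation 15.2%, where the median over members and groups was 5.22%), and all 3 libraries with Arid1a siRNAs lay below them. The siRNAs changed Rrp9 by -0.44 ± 0.11 without EGF (edgeR adjusted p = 0.00574) and -0.56 ± 0.09 with EGF (edgeR adjusted p = 2.03e-04), and EGF raised it by 0.94 ± 0.11 and 0.82 ± 0.10. Without control siRNA replicate 1 the change without EGF was -0.27 and was not called (edgeR adjusted p = 0.119). Tsr1, a factor of late maturation, stood at 109.9 and 101 CPM, 204, 205 and 191 with EGF, 99.5, 89.2 and 80.6 with Arid1a siRNAs and 140.3, 139 and 138 with both. Its changes with the siRNAs were -0.23 ± 0.08 (edgeR adjusted p = 0.0280, a call lost in 7 of 18 other settings, with adjusted p up to 0.231, without control siRNA replicate 1) and -0.52 ± 0.07 (edgeR adjusted p = 2.20e-05).

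Rrp12, which is needed for the export of ribosomal subunits from the nucleus, had the largest EGF response of this role with control siRNA and was not called with the Arid1a siRNAs alone. It stood at 65.2 and 60.5 CPM, 125, 126 and 118 with EGF, 68.1, 70.3 and 61.1 with Arid1a siRNAs and 108, 111 and 112 with both. EGF raised it by 0.97 ± 0.07 (edgeR adjusted p = 1.45e-07) and 0.73 ± 0.06 (edgeR adjusted p = 1.48e-06), and the change with the siRNAs was -0.16 ± 0.06 with EGF (edgeR adjusted p = 0.0463, a call lost in 11 of 20 other settings). Noc4l, which works in a complex with Nop14, was at the low end of the EGF responses. Its levels were 99.1 and 94.5 CPM, 131, 139.9 and 121 with EGF, 78.2, 77.2 and 88.6 with Arid1a siRNAs and 103, 112 and 100.3 with both. EGF raised Noc4l by 0.43 ± 0.08 (edgeR adjusted p = 6.52e-04) and 0.37 ± 0.07, and the siRNAs changed it by -0.25 and -0.31. The call without EGF was lost in 6 of 18 other settings. Its partner Nop14 changed by 0.15 and -0.05 with the siRNAs and was called in neither case (edgeR adjusted p = 0.0946 and 0.500). Utp14a stood at 34.99 and 31.3 CPM, 45.1, 50.03 and 46.4 with EGF, 38.1, 32.6 and 35.1 with Arid1a siRNAs and 44.9, 43.4 and 41.7 with both. Among the other processome proteins, Wdr43 and Heatr1 fell with the siRNAs, by their calls, only in the comparison with EGF (log2 -0.46 and -0.29, edgeR adjusted p = 5.57e-06 and 0.00577), and Utp20 in neither (0.16 and -0.08).

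Large subunit factors were the largest group, and 8 of its 13 members fell with the siRNAs in the presence of EGF. Rrp1b, a nucleolar homologue of a yeast large subunit factor, stood at 44.95 and 53.1 CPM with control siRNA, 94.7, 96.9 and 92.6 with EGF, 59.5, 57.7 and 51.1 with Arid1a siRNAs and 82.8, 78.2 and 81.3 with both. It had the largest EGF response of this role with control siRNA (0.96 ± 0.08, edgeR adjusted p = 6.94e-07), against 0.52 ± 0.07 with Arid1a siRNAs. Its siRNA changes lay on both sides of 0, at 0.20 ± 0.08 without EGF (edgeR adjusted p = 0.0695, not called) and -0.23 ± 0.07 with EGF (edgeR adjusted p = 0.0149). Noc3l was the member that rose with the siRNAs. It stood at 56.8 and 54.2 CPM, 92.9, 92.4 and 93.9 with EGF, 63.3, 65.3 and 59.7 with Arid1a siRNAs and 87.4, 83.2 and 87.7 with both. The rise was 0.18 ± 0.06 (edgeR adjusted p = 0.0394) and was lost in 11 of 18 other settings. Over those 18 the adjusted p ranged from 0.00783 to 0.184.

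Ftsj3, a methyltransferase homologue, and Rrs1, which helps bring the 5S particle into the subunit, were called lower with the siRNAs without and with EGF. Ftsj3 stood at 188 and 168 CPM, 259, 288 and 254 with EGF, 159, 145 and 155 with Arid1a siRNAs and 195, 211 and 199.6 with both. Rrs1 stood at 84.8 and 75.1 CPM, 121, 131 and 128 with EGF, 65.1, 65.4 and 67.4 with Arid1a siRNAs and 102, 106 and 101 with both. Ftsj3 changed by -0.22 ± 0.07 and -0.40 ± 0.06 without and with EGF (edgeR adjusted p = 0.0263 and 1.26e-04), and Rrs1 by -0.28 ± 0.07 and -0.30 ± 0.06 (edgeR adjusted p = 0.00420 and 6.94e-04). Without EGF, the call of Ftsj3 was lost in 5 of 18 other settings. Without control siRNA replicate 1, Ftsj3 changed by -0.13 (edgeR adjusted p = 0.270) and Rrs1 by -0.18 (edgeR adjusted p = 0.0902), neither of them called. The EGF responses of Rrs1 differed by -0.02 ± 0.09 between the siRNAs (edgeR adjusted p = 0.988).

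Gnl3 encodes nucleostemin, a nucleolar GTPase, and its EGF response with Arid1a siRNAs was the largest of the role (0.75 ± 0.06, edgeR adjusted p = 8.36e-07). It stood at 122 and 111 CPM, 207, 226 and 229.6 with EGF, 119, 119 and 125 with Arid1a siRNAs and 193, 213 and 204 with both. The partners Pes1, Bop1 and Wdr12 form the PeBoW complex. Pes1 stood at 117 and 108 CPM, 153, 172 and 162 with EGF, 101, 96.6 and 109.5 with Arid1a siRNAs and 123, 129 and 127 with both, and responded least to EGF in this role (0.53 ± 0.07 and 0.30 ± 0.06). Bop1 rose by 0.60 ± 0.07 and 0.47 ± 0.06 with EGF, and Wdr12 by 0.86 ± 0.11 and 0.58 ± 0.10. With the siRNAs and EGF, Pes1 and Wdr12 fell (-0.36 and -0.29, edgeR adjusted p = 2.52e-04 and 0.0251) while Bop1 was not called (-0.14, edgeR adjusted p = 0.0646). The call of Wdr12 was lost in 5 of 20 other settings. Nop2, the cytosine methyltransferase of the large subunit RNA, with Nop16 and Nip7, fell by calls with EGF only (-0.30, -0.37 and -0.39), and Ppan and Grwd1, a chaperone of a ribosomal protein, were called in neither comparison.

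The 13 members not given library by library above had group means between 28.6 CPM (Wdr12, control siRNA) and 402 CPM (Nolc1, control siRNA with EGF), and each of them rose with EGF under both siRNAs.

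The difference between the EGF responses was tested as an interaction. The difference was below 0, a smaller rise with Arid1a siRNAs, in 34 of 35 members, with Fbl at 0.04 the exception. Over all genes it was below 0 in 45.4%, but for genes that EGF lowered this sign means a larger fall. The share among genes that EGF raised was not counted. Only Mybbp1a was called (-0.31 ± 0.06, edgeR adjusted p = 0.0336), where 0.382% of all genes were called with a difference below 0. That call was lost in 11 of 17 other settings, the adjusted p ranging from 7.01e-05 to 0.120: it was lost when the replicate number was added as a block and when any 1 library was left out, other than Arid1a siRNAs replicate 3. At an unadjusted p under 0.05, 17 members had a difference below 0, against 3.60% of all genes. The median difference was -0.21 with 0.02 over all genes, and members lay between -0.43 for Rrp1b and 0.04 for Fbl. After Mybbp1a, the smallest adjusted p-values (edgeR) were 0.0712 for Wdr43 (-0.33 ± 0.08), 0.0839 for Ncl (-0.34 ± 0.08), 0.0971 for Rrp1b (-0.43 ± 0.11) and 0.106 for Ddx21 (-0.27 ± 0.07). DESeq2 called these 4 with Mybbp1a. For Myc the difference was -0.21 ± 0.08 (edgeR adjusted p = 0.315). By role, the medians were -0.17 for MYC and MAX, -0.27 for RNA polymerase I and nucleolar proteins, -0.20 for snoRNP cores, -0.22 for the small and -0.19 for the large subunit. The 5 comparisons share their groups of libraries, so the counts in them are not independent of each other.

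Levels were compared between genes only on a per-length scale, the FPKM values deposited by the authors, which divide fragments by transcript length and library size. In the 3 libraries with Arid1a siRNAs and vehicle, Npm1 was highest at 301 ± 15.2 FPKM (SD, n = 3), followed by Mybbp1a at 140.5 ± 2.45, Ncl at 122 ± 5.07, Nop58 at 105 ± 2.33 and Bop1 at 98.1 ± 6.07. The members' median was 35.2 FPKM, with Myc just above it at 38.5 ± 1.32 and Max below it at 22.2 ± 1.21, and Wdr12 was lowest at 9.57 ± 0.725. Of the 34 pairs of neighbours in this order, 26 overlapped. The genes that were apart from the next lower one were Npm1, Mybbp1a, Ncl, Bop1, Myc, Rrs1, Max and Rrp12.

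The genes of the network around MYC and MAX moved in several directions (13 tested). With control siRNA, EGF lowered 4 genes of the MXD family (Mxd1, Mxd3, Mxd4 and Mxi1), whose proteins pair with MAX and repress E-box genes. In all, 6 of the 13 were called lower, where 18.8% of all genes were. Mxd3 stood between 27.003 and 28.4 CPM in the controls and between 13.3 and 15.2 CPM with EGF (-0.92 ± 0.10, edgeR adjusted p = 8.56e-06). Mxd4 changed by -0.85 ± 0.08, Mxd1 by -0.65 ± 0.10 and Mxi1 by -0.41 ± 0.07, and the paralogues Mycl1 and Mycn by -0.71 ± 0.10 and -0.68 ± 0.21, all called lower, while Tfap4, a target of MYC, rose by 0.57 ± 0.08 and Mlx by 0.29 ± 0.07. The further MAX partners Mnt and Mga were not called. With Arid1a siRNAs, EGF lowered 4 of these 6 (Mxd3 -0.39, Mxd4 -0.49, Mycl1 -0.34 and Mxd1 -0.26) and raised Tfap4 by 0.33. Over all genes, 10.4% were called lower in that comparison. No gene of this list was called in the test of the difference between EGF responses in edgeR. In either direction, 7 of the 13 had an unadjusted p under 0.05 in that test, against 1297 of all 13343 genes. The difference was above 0 for 8 of the 13 and below 0 for 5.

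The siRNAs had their largest effects in the network outside Myc and Max. Mlx, the partner of the glucose-sensing factors Mlxip and Mlxipl, stood at 62.9 to 67.1 CPM with control siRNA and 27.9 to 28.7 with Arid1a siRNAs, and at 75.4 to 84.3 and 30.7 to 32.4 with EGF. These groups lay far apart in both settings (-1.20 ± 0.07 without EGF, edgeR adjusted p = 3.58e-08, and -1.33 ± 0.06 with EGF, edgeR adjusted p = 3.57e-09). Mlxip fell 1.53-fold and 1.55-fold (log2 -0.61 and -0.63). Mycn rose by 0.93 ± 0.18 without EGF (edgeR adjusted p = 0.00104) and 1.57 ± 0.18 with EGF (edgeR adjusted p = 7.14e-06), from a low level of 2.63 to 3.37 CPM to 4.76 to 6.08 without EGF, and from 1.60 to 2.17 CPM to 5.28 to 5.85 with EGF. Mxd3 rose in both settings (0.29 and 0.82), Mxd1 with EGF only by its call (0.43), and Mxd4 fell in both (-0.73 and -0.37). The plot of this network sets these changes beside those of Myc and Max.

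**Figure D5:**
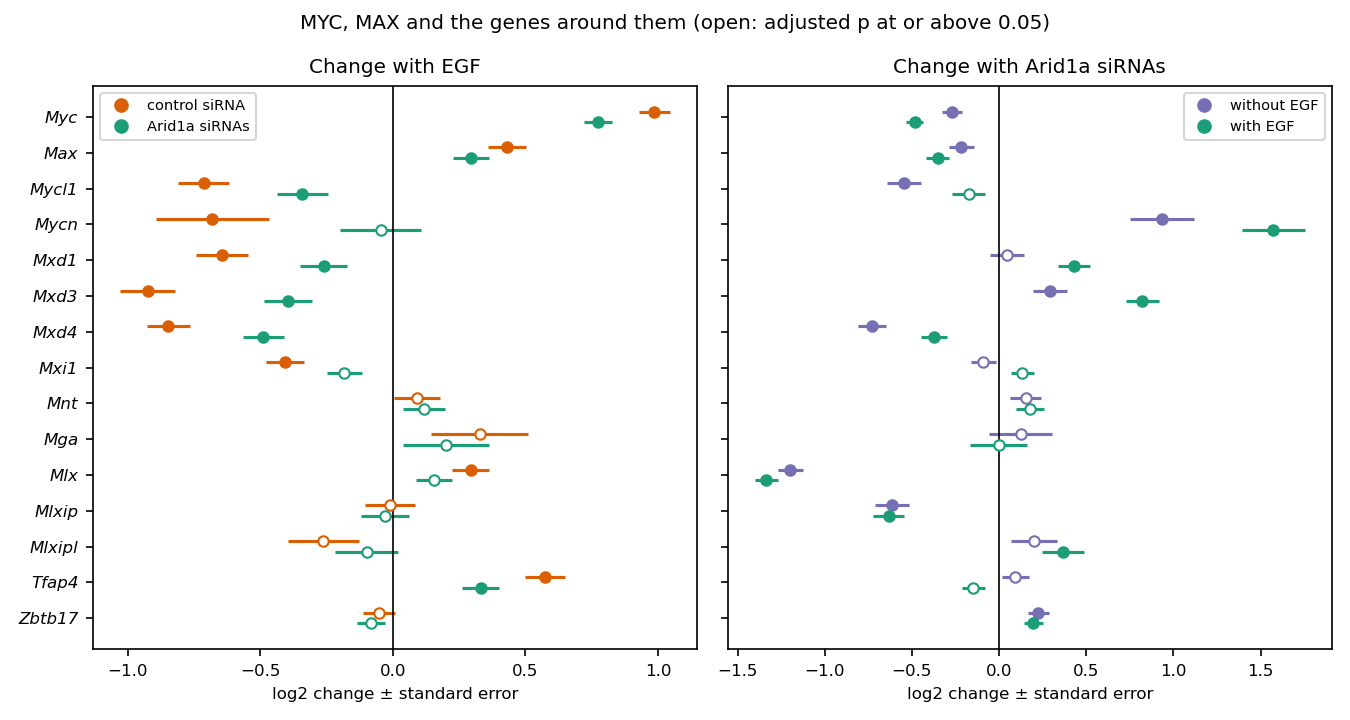
Log2 change ± standard error (horizontal axes) of Myc, Max and 13 genes of their network with EGF (left; control siRNA orange, Arid1a siRNAs green) and with Arid1a siRNAs (right; without EGF violet, with EGF green), open points being uncalled. With control siRNA and EGF, 6 network genes fell while Myc and Max rose, and Mlx and Mycn show the largest changes with the siRNAs.

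Most other small and large subunit genes rose with EGF as well, with smaller medians than the members. With control siRNA, EGF raised 33 of 43 other small subunit genes (median 0.42) and 39 of 44 other large subunit genes (median 0.44), and lowered none of either list. Cirh1a rose by 0.87 and the acetyltransferase gene Nat10 by 0.80, and in the large subunit Nle1 by 1.05 and Mdn1, a giant ATPase of subunit remodelling, by 0.98. Of the other RNA polymerase I genes, 8 of 15 rose and none fell, with Tcof1, the treacle gene, at 0.80. Other snoRNP and assembly genes gave 8 rises and 1 fall of 16, and RNA exosome genes 8 rises and no fall of 15. RNA polymerase III genes were more mixed, with 8 rises and 3 falls of 22, beside 16.8% of all genes higher and 18.8% lower. Polr3d rose by 0.61, and Maf1, the repressor of this polymerase, changed by -0.44 (edgeR adjusted p = 1.77e-04).

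In cells with Arid1a siRNAs, EGF raised 29 of the 43 small subunit, 31 of the 44 large subunit, 7 of the 15 RNA polymerase I, 9 of the 16 snoRNP, 5 of the 22 RNA polymerase III and 7 of the 15 exosome genes. A fall was called for 1 gene of all these, Maf1 (-0.21). Of all genes tested, 13.0% were called higher in that comparison and 10.4% lower. With EGF in both groups, the siRNAs lowered 24 of 43 small subunit genes and raised 1. They lowered 21 of 44 large subunit genes and raised 1, beside 23.2% of all genes called lower and 23.7% higher. Without EGF these counts were 12 lower and 3 higher, and 7 lower and 1 higher, beside 20.1% of all genes lower and 18.8% higher. With EGF, 7 of 15 RNA polymerase I genes fell and 2 rose, and 4 of 16 snoRNP genes fell and 2 rose. Of RNA polymerase III genes 7 of 22 fell and 2 rose, and of exosome genes 5 of 15 fell and 1 rose. Without EGF, these lists in the same order had 3, 1, 6 and 2 falls and 2, 3, 1 and 1 rises. Ptrf rose by 0.75 and 0.77 without and with EGF, and Coil by 0.66 and 0.50. Imp4, of the U3 particle, changed by -0.84 and -0.95 without and with EGF, the kinase gene Riok2 by -0.55 and -0.79, and the helicase gene Ddx54 by -1.05 and -1.08, larger falls than that of any of the 35 members. Cirh1a was the gene of these lists whose EGF response was called smaller with Arid1a siRNAs (-0.38 ± 0.08, edgeR adjusted p = 0.0464).

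Genes that are widely listed as MYC targets outside the nucleolus went the same way in part. EGF raised 26 of 31 with control siRNA (median 0.42) and 24 of 31 with Arid1a siRNAs (median 0.34), and lowered none. The shares of all genes called higher were 16.8% and 13.0%. The largest rises were of Srm, spermidine synthase, by 1.07 and 0.88, and Cad, the first enzymes of pyrimidine synthesis, by 1.06 and 0.83. With the siRNAs, 13 fell and 4 rose without EGF, and 21 fell and 2 rose with EGF. Over all genes, 20.1% were called lower and 18.8% higher without EGF, and 23.2% and 23.7% with EGF. Eif4g1, the scaffold of the cap-binding complex, fell most (-0.66 and -0.74), and Cad was among the 4 that rose without EGF (0.30, edgeR adjusted p = 0.0105). Shmt1 had a smaller EGF response with Arid1a siRNAs by its call (-0.35 ± 0.07, edgeR adjusted p = 0.0370).

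Set against the sequences printed above, the 8 members with a CACGTG match had a median EGF response of 0.86 with control siRNA (0.43 to 1.03), the 21 with a window and no match 0.74 (0.43 to 0.998), and the 6 without a window 0.63 (0.48 to 0.99). With Arid1a siRNAs the medians were 0.60, 0.51 and 0.58. The ranges overlap almost fully, and with control siRNA Max and Mybbp1a, the lowest and the highest response, both hold a match. With Arid1a siRNAs the highest response was that of Rrp9, which is among the members without a match. The members' positions in the promoter table come from GRCm38.p6, while the reads were aligned to another build and are compared with it by gene symbol only.

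Strand is lost in these libraries. Where a gene on the other strand shares exon bases with a member, its reads could be counted for the member, or both could be left out. In the GENCODE vM21 annotation, counting protein-coding partners only, this concerned 11 of the 35 members: Mybbp1a, Nop56, Dkc1, Heatr1, Rrp9, Tsr1, Bop1, Pes1, Wdr12, Rrp1b and Gnl3. Genes that are not protein-coding also share exon bases with further members, such as Polr1a and Ncl, and their strand was not recorded. For Mybbp1a the partner Spns2 stood at 2.63 to 13.98 CPM, and with control siRNA EGF raised it by 2.11 on the log2 scale (edgeR adjusted p = 3.41e-07). With EGF the Arid1a siRNAs changed Spns2 by -0.86 (edgeR adjusted p = 0.000108). For Rrp9 the partner Parp3 stood at 9.46 to 22.4 CPM and differed by 0.72 on the log2 scale between the siRNAs with EGF, opposite in sign to Rrp9. The partners Idh3b of Nop56 (157 to 179 CPM) and Pbrm1 of Gnl3 (164 to 245 CPM) were abundant, and what the partners add to the members' counts was not tested.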

How the data were processed

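RNA was sequenced in 11 libraries of mouse 266-6 cells with a kit that does not mark the strand. The deposited tables hold raw read counts per gene symbol. Per the submitters' processing notes, the authors used TopHat2 2.1.1, HTSeq 0.9.1, Cuffnorm 2.2.1.2, Cuffdiff 2.2.1.5 and the build mm9. Annotation and counting settings are not given in the sources used here. A table deposited by the authors holds FPKM values, of which 3 control columns were not used, because the labels show only 2 control libraries.

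Counts were analysed in R 4.3.3 with edgeR 4.0.16: filterByExpr (minimum count 10, minimum total 15) kept 13343 genes (57.3% of symbols), libraries were scaled by TMM, and 4 group means were fitted to all libraries by the quasi-likelihood method (7 residual degrees of freedom, biological coefficient of variation 7.00%). Standard errors are the log2 change divided by the square root of the F statistic. No label says that replicates are separate cultures, so p-values measure the spread between these samples only. Samples were grouped by their titles. Same-numbered libraries of the 2 groups with EGF deviated together (correlations of 0.14, 0.30 and 0.13), so an added fit of these groups paired them by number. The main fit did not pair libraries. In no other pair of groups did every same-numbered pair exceed 0.1. Pairs with different numbers passed this value in 12 of 30 cases and reached 0.38. Over all groups, the median correlation was 0.018 for same-numbered pairs and 0.036 for the others. Alternatives were RLE and upper-quartile factors, no filter, DESeq2 1.42.0, limma-voom and limma on log2(FPKM + 1) (limma 3.58.1; pseudocount 1), only the groups compared, a replicate block and leaving out each library.

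The members, roles and lists were chosen with earlier results of these data known. Per-library values are given for Myc, Max and the called members with the largest and smallest change of each role, with Ncl added after its values were seen. Genes of further lists are named if among the 2 largest rises or falls called, and any gene of the MYC network may be named. Protein sequences are not used here.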

Additional observations from a re-analysis of the deposited data

Results flagged for a closer look

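The EGF response of Mybbp1a was smaller with Arid1a siRNAs than with control siRNA by the test of the difference itself. The difference was -0.31 ± 0.06 on the log2 scale (edgeR adjusted p = 0.0336), between a rise of 1.03 in 3 libraries against 2 and one of 0.72 in 3 against 3. The adjusted p went from 7.01e-05 to 0.120 over the 17 other settings run, and the call was lost in 11 of them.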

How the results depend on the processing

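EGF raised all 35 members with control siRNA under each of the 18 other settings, and at least 34 with Arid1a siRNAs when 1 library was left out. The members' median change ranged over all leave-one-out fits from 0.71 to 0.78 and from 0.50 to 0.56. With EGF in both groups, the siRNAs lowered 24 to 27 members in the leave-one-out fits and 24 to 30 under the others, and raised none.

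For Arid1a siRNAs without EGF, the 1 rise and 12 falls became 3 and 6 with upper-quartile factors and 0 and 6 with only the 2 groups compared. With no filter on low counts or with a replicate block there were 0 rises. Leaving out 1 library gave 0 to 3 rises and 5 to 13 falls. For the difference between EGF responses, the 1 member became 3 with no filter, 5 with DESeq2 and 0 with the replicate block, which called 56 genes. Leaving out 1 library gave 0 to 4 members and 55 to 153 genes. The full data gave 1 member and 126 genes, and 55 to 81 genes were called without replicate 1 of control siRNA, of either EGF group or of Arid1a siRNAs, without Arid1a siRNAs replicate 2, or without replicate 3 of either EGF group. The cause of these changes was not tested.

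Signs turned only for uncalled changes. For Arid1a siRNAs without EGF, upper-quartile factors gave 0.018 for Polr1a, 0.033 for Mybbp1a and 0.049 for Bop1, and limma-voom gave -0.0052 for Wdr12. Leaving out 1 library there gave log2 changes of -0.10 to 0.018 for Polr1a, -0.15 to 0.0087 for Nolc1, -0.12 to 0.015 for Heatr1, -0.069 to 0.048 for Bop1, -0.10 to 0.13 for Wdr12 and -0.014 to 0.12 for Gnl3. With EGF it gave -0.085 to 0.0015 for Nop14 and -0.13 to 0.033 for Ppan. In the difference between EGF responses it gave -0.056 to 0.16 for Fbl, -0.11 to 0.0058 for Noc4l, -0.29 to 0.020 for Rrp9 and -0.11 to 0.062 for Rrs1.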
